A study of Mus musculus with 12 samples.

Results

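The genes of glycolysis and mitochondrial pyruvate entry described here were followed through mouse 8-cell embryos that had been depleted of Nr5a2, of Klf5 or of both transcription factors. The 10 genes were taken by name from the 55401 genes counted: the hexokinases Hk1 and Hk2, the phosphofructokinase subunits Pfkl and Pfkp, the pyruvate kinase gene Pkm, the lactate dehydrogenase subunits Ldha and Ldhb, the pyruvate dehydrogenase subunit Pdha1, and the mitochondrial pyruvate carrier subunits Mpc1 and Mpc2. All 10 were found, each under 1 gene identifier. Zygotes from superovulated B6129F1 females aged 3 to 5 weeks, mated with B6CBAF1 males, received siRNA and the co-injection marker H2B-EGFP at 8 to 9 hours post-fertilization (hpf). The 4 groups were control (control siRNA at 15 µM, 2 libraries), Nr5a2 KD (siRNA against Nr5a2 at 5 µM, 3 libraries), Klf5 KD (siRNA against Klf5 at 10 µM, 3 libraries) and dKD (both siRNAs, concentrations in the mixture not stated, 4 libraries). Each of the 12 libraries was made from polyA RNA of 10 pooled embryos, and nothing in the labels says which libraries came from separate collections, so the p-values below measure the spread between these pools.

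Glycolysis converts glucose to pyruvate in the cytosol. Hexokinase and phosphofructokinase set its early committed steps, pyruvate kinase makes the pyruvate, and lactate dehydrogenase interconverts pyruvate and lactate. Pyruvate enters the mitochondrion through a carrier built of MPC1 and MPC2 and is then oxidised by the pyruvate dehydrogenase complex. Mouse cleavage-stage embryos are known for depending on pyruvate as a fuel at first and for turning to glucose later in preimplantation development.

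The libraries held 6676683 to 12560926 counts on genes. Nr5a2 stood at 14.7% of its control mean in Nr5a2 KD and 13.7% in dKD, and Klf5 stood at 24.5% in Klf5 KD, 12.3% in dKD and 30.6% in Nr5a2 KD. Of 9 listed 8-cell embryo markers, 8 reached a mean of 1 CPM (counts scaled to library size by TMM). Summed over the list, the libraries of control held 3721 to 4367 CPM, those of Klf5 KD 4578 to 5269 CPM, those of Nr5a2 KD 1931 to 2824 CPM and those of dKD 1733 to 2702 CPM. Most of each sum was Dppa5a; without it the other 8 summed to 222 to 229 CPM in control, 182 to 243 CPM in Klf5 KD, 131 to 167 CPM in Nr5a2 KD and 136 to 154 CPM in dKD. Within the list, Krt8 and Krt18, singled out after their values were seen, were higher in Nr5a2 KD than in control. Krt8 stood at 2.81 to 2.87 CPM in control, 0.293 to 3.06 CPM in Klf5 KD, 8.52 to 18.1 CPM in Nr5a2 KD and 5.30 to 6.83 CPM in dKD, and Krt18 at 0.454 to 2.94, 1.296 to 4.83, 7.15 to 14.5 and 1.41 to 5.93 CPM in the same order. Of 9 cumulus and granulosa cell markers, 2 were at 0 in every library and the summed level of the list was at most 3.29 CPM in any library. Mitochondrially encoded genes took 12.9% to 13.2% of the counts of the control libraries and 4.41% to 12.8% of those of the other libraries. In 5 libraries (Nr5a2 KD replicate 3, Klf5 KD replicates 1 and 2, and dKD replicates 3 and 4) the share lay under 10%. Results of the fits are given without them where a call changed, and the tests of ratios below were not run without them.

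In control embryos Mpc1, Mpc2 and Pdha1 were the most abundant of the 10 genes. Per exon length, in TPM (counts scaled to exon length and library size, mean ± SD, n = 2), Mpc1 stood at 317 ± 5.90, Mpc2 at 187 ± 4.87, Pdha1 at 84.2 ± 4.66 and Ldhb at 59.8 ± 2.86. The other 6 genes lay between 3.72 TPM for Hk2 and 0.386 TPM for Pfkp. In this order only the ranges of Ldha and Hk1, and those of Pfkl and Pfkp, overlapped between neighbours. In dKD the order began with Mpc2 at 144 ± 35.8 TPM and Pdha1 at 115 ± 36.4 TPM (n = 4), whose ranges overlapped, and Mpc1 came after both at 43.1 ± 23.2 TPM. In Nr5a2 KD the ranges of Mpc2, Pdha1 and Mpc1 overlapped from neighbour to neighbour, whereas in Klf5 KD Mpc2 at 274 ± 39.6 TPM, Mpc1 at 193 ± 27.99 TPM and Pdha1 at 91.8 ± 23.1 TPM (n = 3) did not overlap. In bulk pools, fewer cells and less RNA per cell cannot be told apart.

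Relative to library size scaled by TMM, embryos that received Nr5a2 siRNA had more Hk2, Pfkp and Ldha RNA and less Mpc1 and Mpc2 RNA. This was read from all 12 libraries, 7 with Nr5a2 siRNA and 5 without it, in an edgeR quasi-likelihood fit with a term for each siRNA. A gene was called when its adjusted p (Benjamini-Hochberg over all genes tested) was below 0.05 and its change was at least 2-fold. Of the 10 genes, 3 were called higher and 2 lower, where 6.72% and 6.55% of the 14830 genes tested were called in these directions. The median log2 change of the 10 genes was 0.34, beside 0.03 over all genes tested. For these 5 genes the 7 libraries with Nr5a2 siRNA did not overlap the 5 without it; this held in the higher direction for 4.9% of all genes tested and in the lower direction for 6.82%.

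**Figure D1:**
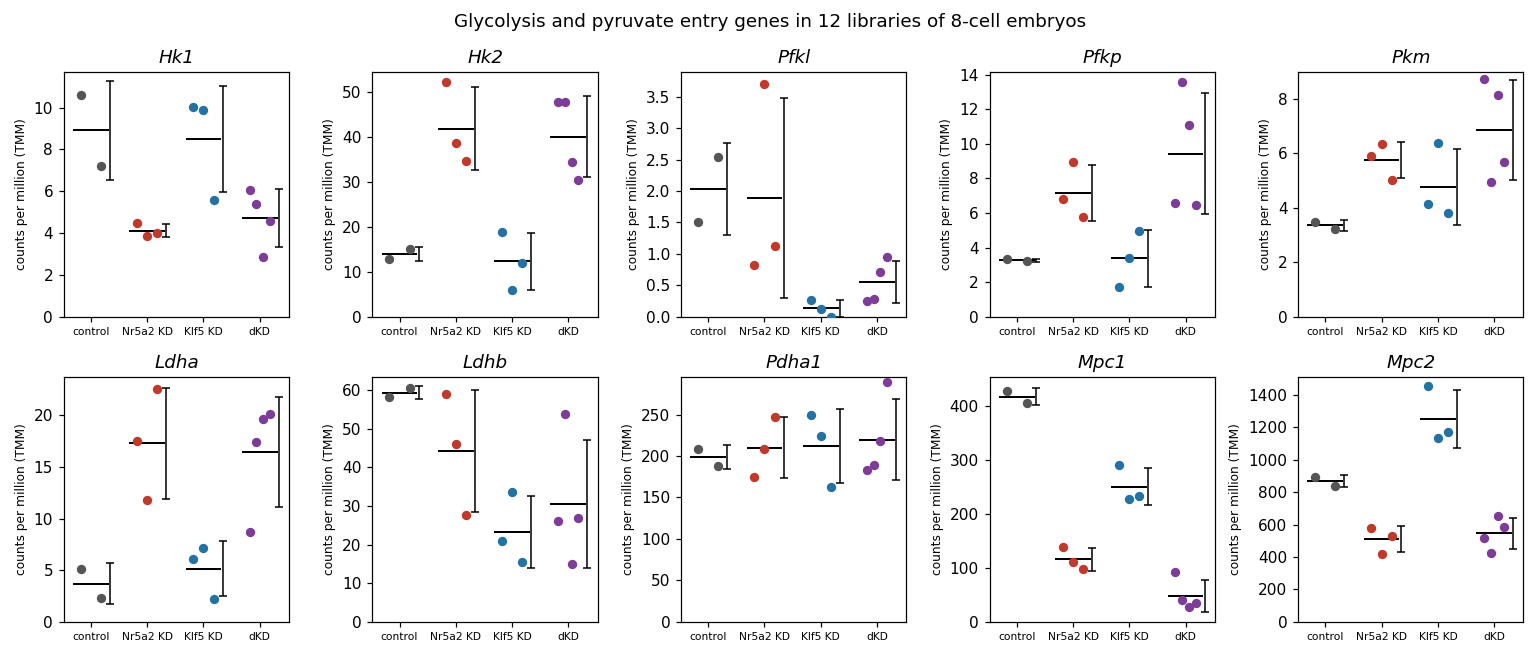
Level of each of the 10 genes in CPM (counts scaled to library size by TMM) in every library, by group; points are libraries, horizontal lines group means and vertical bars SD. Hk2, Pfkp and Ldha are higher and Mpc1 and Mpc2 lower in all 7 libraries with Nr5a2 siRNA (Nr5a2 KD and dKD) than in the 5 without it, and Pdha1 has overlapping values in the 4 groups.

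Hk2 encodes a hexokinase that is inducible in many tissues. Its level was 12.9 and 15.1 CPM in control, 52.2, 38.8 and 34.7 CPM in Nr5a2 KD, 18.8, 6.01 and 12.0 CPM in Klf5 KD, and 47.8, 47.8, 34.5 and 30.4 CPM in dKD. The lowest library with Nr5a2 siRNA lay above the highest without it. The log2 change with Nr5a2 siRNA was 1.65 ± 0.24 (SE, edgeR adjusted p = 0.000122). Hk2 was also called in Nr5a2 KD against control, at 1.60 ± 0.28 (edgeR adjusted p = 0.00516), in dKD against control, at 1.55 ± 0.28 (edgeR adjusted p = 0.00829), and in dKD against Klf5 KD, at 1.71 ± 0.36 (edgeR adjusted p = 0.00801). Nr5a2 KD against control and dKD against Klf5 KD share no library, whereas the comparisons with control share the same 2 control libraries. Same-numbered libraries of Nr5a2 KD and dKD did deviate together over all genes (correlations 0.130, 0.221 and 0.254), so these comparisons may not be independent. With only 1 control library left, Hk2 lost its call against control (in Nr5a2 KD edgeR adjusted p = 0.0905 without control replicate 1 and 0.0518 without control replicate 2), with log2 changes of 1.48 and 1.73. In dKD the values were 0.113 and 0.0826, with log2 changes of 1.44 and 1.68.

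Hk1, the widely expressed hexokinase, was not called. Its level was 10.6 and 7.23 CPM in control, 4.47, 3.85 and 4.01 CPM in Nr5a2 KD, 10.1, 9.90 and 5.57 CPM in Klf5 KD, and 6.05, 5.38, 2.83 and 4.59 CPM in dKD. The groups with and without Nr5a2 siRNA overlapped through Klf5 KD replicate 3. The log2 change was -0.96 ± 0.26 with an edgeR adjusted p of 0.0114, short of the 2-fold minimum. It passed that minimum, and was called lower, without control replicate 2 (-1.02), Klf5 KD replicate 3 (-1.10), dKD replicate 1 (-1.05) or dKD replicate 2 (-1.01). Hk1 lies on chromosome 10 over the antisense gene Hk1os, and the counting did not use strand, so reads from the overlap cannot be assigned to either gene. The spans of Hk2 (Gm17034), Pfkp (Pitrm1), Pkm (Gm49759), Pdha1 (Map3k15) and Mpc2 (Gm37860) also overlap other genes. Values that were not whole, as shared reads give, stood in 50% of libraries for Pfkp, Pkm and Mpc2. For Pdha1 the share was 58.3% and for Hk2 0%.

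Pfkp, the platelet-type phosphofructokinase subunit, stood at 3.33 and 3.21 CPM in control, 6.82, 8.93 and 5.76 CPM in Nr5a2 KD, 1.70, 3.42 and 4.98 CPM in Klf5 KD, and 6.56, 13.6, 11.1 and 6.48 CPM in dKD. The libraries with Nr5a2 siRNA all lay above those without, at a log2 change of 1.35 ± 0.31 (edgeR adjusted p = 0.00418). Among the pairs it was called in dKD against Klf5 KD, at 1.51 ± 0.44 (edgeR adjusted p = 0.0400), a call that was lost when Klf5 KD replicate 1 or 2 or dKD replicate 2 or 3 was left out (edgeR adjusted p = 0.120, 0.109, 0.107 and 0.0808). Against control the log2 change was 1.15 ± 0.44 in Nr5a2 KD and 1.56 ± 0.44 in dKD (edgeR adjusted p = 0.131 and 0.0514), not called. In dKD it was called under 7 of 18 alternatives, among them DESeq2 (adjusted p = 0.0171), total counts (edgeR adjusted p = 0.0355) and the fit without dKD replicate 1 (edgeR adjusted p = 0.0334). Pfkl, the liver-type subunit, had 10 and 19 counts in control, 7, 27 and 9 in Nr5a2 KD, 3, 1 and 0 in Klf5 KD, and 2, 2, 6 and 8 in dKD. At these counts no fold change is given for Pfkl, which was not called in any comparison and did not pass the filter on low counts in dKD against Klf5 KD or dKD against Nr5a2 KD.

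Pkm encodes the pyruvate kinase of most non-liver tissues. Its level was 3.48 and 3.21 CPM in control, 5.88, 6.32 and 5.01 CPM in Nr5a2 KD, 4.13, 6.36 and 3.81 CPM in Klf5 KD, and 8.70, 4.95, 8.13 and 5.65 CPM in dKD. All 10 libraries other than control lay above both control libraries, but Klf5 KD overlapped both groups with Nr5a2 siRNA. The log2 change with Nr5a2 siRNA was 0.62 ± 0.26 (edgeR adjusted p = 0.0936), not called, and no pair of groups passed either, with 0.80 ± 0.45 in Nr5a2 KD and 1.08 ± 0.42 in dKD against control (edgeR adjusted p = 0.313 and 0.138).

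**Figure D2:**
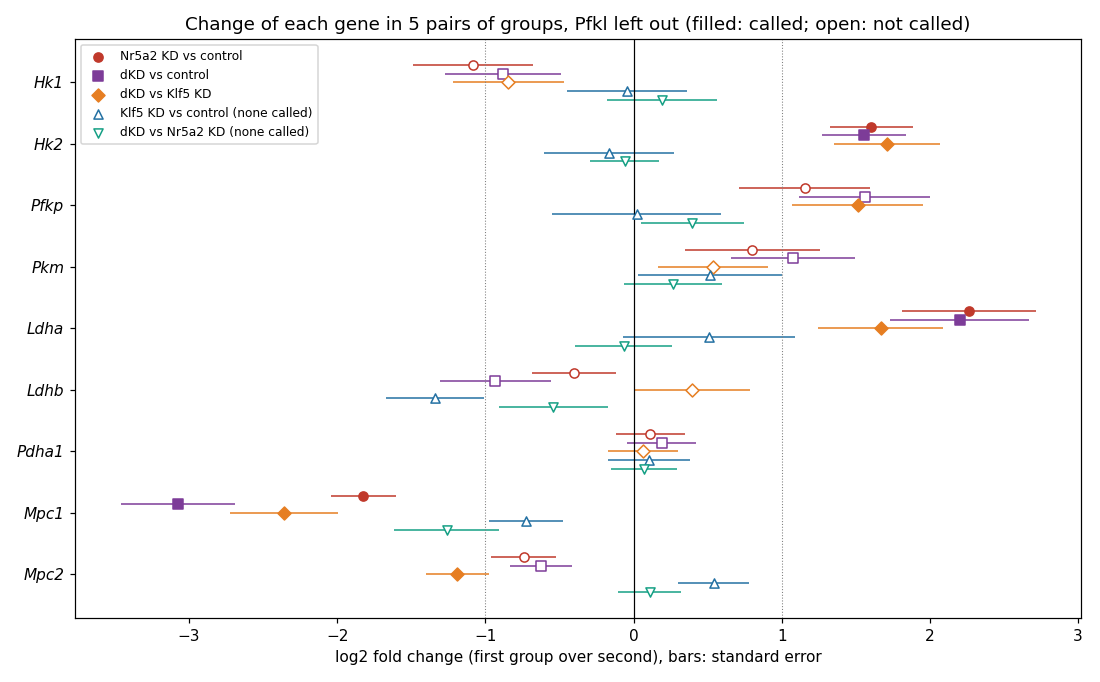
Log2 fold change (x axis) of 9 of the genes in the 5 pairs of groups, with SE bars from edgeR; filled points were called, open points were not, and dotted lines mark a 2-fold change. Pfkl is left out because of its low counts. The 3 pairs that differ by Nr5a2 siRNA hold all filled points, with Hk2 between 1.55 and 1.71 and Mpc1 between -3.08 and -1.83.

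Ldha encodes the lactate dehydrogenase subunit that predominates in muscle, and Ldhb the subunit that predominates in heart. Ldha stood at 5.14 and 2.28 CPM in control, 17.5, 11.8 and 22.6 CPM in Nr5a2 KD, 6.10, 7.19 and 2.20 CPM in Klf5 KD, and 8.70, 17.4, 19.7 and 20.1 CPM in dKD. The 7 libraries with Nr5a2 siRNA lay above the 5 without it, the closest being dKD replicate 1 and Klf5 KD replicate 2. The log2 change was 1.88 ± 0.33 (edgeR adjusted p = 0.000521), the largest rise among the 10 genes in this fit. It was 2.26 ± 0.45 in Nr5a2 KD against control, 2.20 ± 0.47 in dKD against control and 1.67 ± 0.42 in dKD against Klf5 KD (edgeR adjusted p = 0.0100, 0.0156 and 0.0204), called each time. Some of these calls were lost with 1 library left out, at log2 changes that stayed above 2-fold. Without control replicate 2 the log2 change was 1.78 in Nr5a2 KD and 1.73 in dKD (edgeR adjusted p = 0.115 and 0.182), and without control replicate 1 it was 2.89 in dKD (edgeR adjusted p = 0.0590). Against Klf5 KD it was 1.302 without Klf5 KD replicate 3 and 1.57 without dKD replicate 4 (edgeR adjusted p = 0.0568 and 0.0523). Against Klf5 KD it was also not called with ERCC library sizes (log2 change 1.77, edgeR adjusted p = 0.0660). With the mitochondrial share as a term in the fit, Ldha was not called in Nr5a2 KD against control (log2 change 1.74, edgeR adjusted p = 0.0535). Ldha in dKD against control was also not called without the libraries under 10% mitochondrial counts (log2 change 1.85, edgeR adjusted p = 0.0677).

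Per exon length, Ldhb was the more abundant subunit in all 12 libraries. The annotation names 2 pseudogenes after Ldha and 0 after Ldhb, and their effect on these counts was not tested. Ldhb stood at 58.1 and 60.5 CPM in control, 58.9, 46.0 and 27.7 CPM in Nr5a2 KD, 20.9, 33.6 and 15.4 CPM in Klf5 KD, and 25.98, 53.9, 15.1 and 26.9 CPM in dKD. The Klf5 KD libraries all lay below control, and Nr5a2 KD and dKD ranged widely. Its log2 change was 0.04 ± 0.29 with Nr5a2 siRNA over the 12 libraries (edgeR adjusted p = 0.947) and -1.34 ± 0.33 in Klf5 KD against control, where no gene was called (edgeR adjusted p = 0.308). It was -0.93 ± 0.37 in dKD against control and -0.88 ± 0.29 with Klf5 siRNA over the 12 libraries (edgeR adjusted p = 0.147 and 0.551), not called.

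The balance of subunits was followed as the log2 ratio of counts per exon length within each library, which does not depend on library scaling. The ratio of Ldha to Ldhb was -4.57 and -5.81 in control, -2.83, -3.04 and -1.37 in Nr5a2 KD, -2.85, -3.30 and -3.88 in Klf5 KD, and -2.65, -2.71, -0.69 and -1.49 in dKD. It was lowest in both control libraries. Within strata of Klf5 siRNA, the mean difference with Nr5a2 siRNA was 2.12 (two-sided exact permutation test, p = 0.00286, the smallest this design can give over 350 arrangements), and with Klf5 siRNA it was 1.19 (exact permutation p = 0.0571). The permutation did not keep same-numbered libraries together. With the replicate number as a block the differences were 1.82 and 0.89, for which no p was computed.

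The ratio of Hk2 to Hk1 was 0.80 and 1.58 in control, 4.06, 3.85 and 3.61 in Nr5a2 KD, 1.42, -0.20 and 1.63 in Klf5 KD, and 3.51, 3.65, 4.13 and 3.24 in dKD. The 7 libraries with Nr5a2 siRNA held ratios above 3.2 on the log2 scale and the 5 without it stayed below 1.7. The difference was 2.67 with Nr5a2 siRNA (exact permutation p = 0.00286, the smallest possible) and -0.22 with Klf5 siRNA (exact permutation p = 0.660). These were 2 of 4 ratios computed. In the pairs the smallest p that permutation allows was 0.1 for Nr5a2 KD against control and 0.0667 for dKD against control, so neither could pass 0.05. The ratio of Pfkp to Pfkl could not be formed in the Klf5 KD library with 0 Pfkl counts. With 0.5 added to the counts it differed by 0.59 with Nr5a2 siRNA (exact permutation p = 0.409; 0.14 without Klf5 KD replicate 1 and 1.05 without Klf5 KD replicate 3) and by 2.72 with Klf5 siRNA (exact permutation p = 0.0114), the latter resting on the few Pfkl counts given above.

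**Figure D3:**
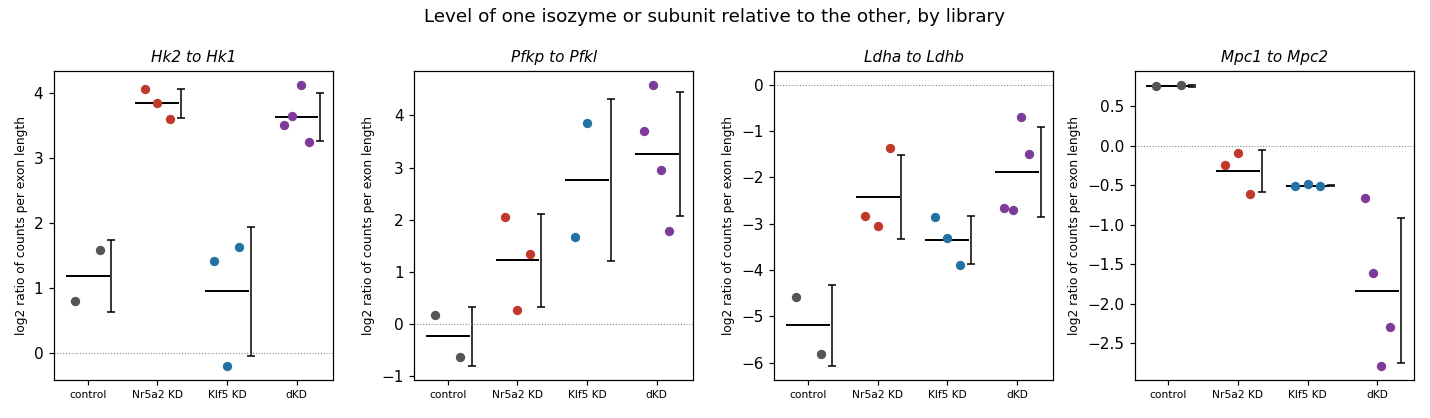
Log2 ratio of counts per exon length (y axis) for 4 pairs of isozymes or subunits in every library. Points are libraries, horizontal lines group means, vertical bars SD and the dotted line marks equal levels per exon length. The Hk2 to Hk1 ratio is high in Nr5a2 KD and dKD alone, while the Mpc1 to Mpc2 ratio is positive only in the 2 control libraries; the Pfkp to Pfkl panel lacks the Klf5 KD library with 0 Pfkl counts.

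Mpc1 showed the largest change of the 10 genes with Nr5a2 siRNA over the 12 libraries. Mpc1 (chromosome 17, 8282904 to 8297661, plus strand, GRCm38) encodes one subunit of the mitochondrial pyruvate carrier, which requires both of its subunits. Its level was 429 and 406 CPM in control, 139, 111 and 97.5 CPM in Nr5a2 KD, 291, 229 and 233 CPM in Klf5 KD, and 92.7, 39.8, 26.9 and 34.04 CPM in dKD. The 4 groups did not overlap: control lay above Klf5 KD, Klf5 KD above Nr5a2 KD, and Nr5a2 KD above dKD. The group means were 60.1% of control in Klf5 KD, 27.7% in Nr5a2 KD and 11.6% in dKD. The log2 change with Nr5a2 siRNA was -2.16 ± 0.25 (edgeR adjusted p = 1.27e-05).

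Against control, Mpc1 fell by 1.83 ± 0.22 on the log2 scale in Nr5a2 KD and by 3.08 ± 0.39 in dKD (edgeR adjusted p = 0.000781 and 0.00177), and it fell by 2.36 ± 0.36 in dKD against Klf5 KD (edgeR adjusted p = 0.00163). In Nr5a2 KD against control the call was lost only with library sizes taken from the ERCC spike-in (log2 change -1.08, edgeR adjusted p = 0.113), a scaling under which the median of all genes in that comparison was 0.82. In these 3 pairs 2, 2 and 3 of the 10 genes were called higher and 1, 1 and 2 lower; of all genes tested 3.45%, 3.38% and 5.38% were called higher and 4.42%, 3.85% and 5.41% lower.

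Mpc1 levels were also lower with Klf5 siRNA, without a call by edgeR. In Klf5 KD against control its log2 change was -0.73 ± 0.25 (edgeR adjusted p = 0.528) and in dKD against Nr5a2 KD it was -1.26 ± 0.35 (edgeR adjusted p = 0.999). Over the 12 libraries the change with Klf5 siRNA was -1.05 ± 0.25, with an unadjusted p of 0.000522 and an edgeR adjusted p of 0.276. DESeq2 called it in that fit (log2 change -1.03, adjusted p = 0.0339), and so did edgeR when dKD replicate 1 was left out (-1.32, adjusted p = 0.0292). Without dKD replicate 1, Mpc1 was also called in dKD against Nr5a2 KD (log2 change -1.78, edgeR adjusted p = 0.0419).

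Other annotated genes could take up or supply reads of Mpc1. The processed pseudogene Mpc1-ps (chromosome 12, 110858565 to 110858894, minus strand) is a copy of the whole Mpc1 coding sequence, with 2 mismatches in 330 bases (99.4% identity). The first 90 bases of both are shown because they hold the mismatches, in capitals, by which a read can be assigned to Mpc1 or to its copy (GENCODE M21 transcripts):
Mpc1: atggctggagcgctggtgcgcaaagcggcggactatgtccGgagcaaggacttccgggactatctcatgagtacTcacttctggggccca
Mpc1-ps: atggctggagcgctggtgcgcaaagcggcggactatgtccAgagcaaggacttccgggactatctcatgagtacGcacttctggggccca
Counted from the first base of the start codon, the substitutions from Mpc1 to the copy are G41A and T75G. Mpc1-ps was assigned 20.1% to 31.1% of the Mpc1 count in every library. The study's methods list the counting options, and none of them is for counting reads that map to several places. How the alignments had been filtered before counting is not given in the sources used here. The Mpc1-ps counts may be its own transcripts or reads of Mpc1, and which was not tested. The antisense gene 4930506C21Rik, whose exons overlap those of Mpc1, was assigned 58.0% to 65.6%, and without strand its reads cannot be told apart from those of Mpc1. Mpc1-ps fell with Mpc1, by 2.16 ± 0.28 on the log2 scale with Nr5a2 siRNA (edgeR adjusted p = 3.45e-05). When the counts of both were added to Mpc1, an alternative chosen after the data were seen, the log2 change was -2.16 (edgeR adjusted p = 1.63e-05). Because both ran at similar shares of the Mpc1 count in every library, this sum could change little and is no further evidence.

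**Figure D4:**
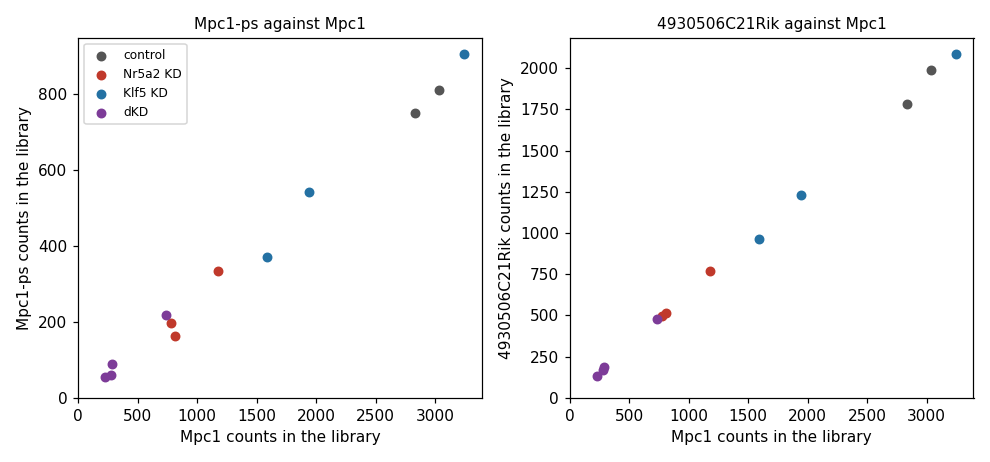
Counts of the pseudogene Mpc1-ps (left, y axis) and of the antisense gene 4930506C21Rik (right, y axis) against the counts of Mpc1 (x axis) in the 12 libraries, coloured by group. Points lie close to a line through 0 in both panels, at 20.1% to 31.1% and 58.0% to 65.6% of the Mpc1 count.

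Mpc2 encodes the other carrier subunit. It stood at 896 and 840 CPM in control, 580, 420 and 527 CPM in Nr5a2 KD, 1458, 1132 and 1170 CPM in Klf5 KD, and 519, 427, 652 and 587 CPM in dKD. The libraries with Nr5a2 siRNA lay below those without it, and Klf5 KD lay above control. The log2 change with Nr5a2 siRNA was -1.02 ± 0.15 (edgeR adjusted p = 0.000120), just past the 2-fold minimum. Its size moved across that minimum with the scaling and the libraries: it was -0.83 with total counts in place of TMM, -0.59 with ERCC library sizes, where the median of all genes was 0.45, and -0.98 without the libraries under 10% mitochondrial counts. It also came under the minimum without Nr5a2 KD replicate 2 (-0.998), Klf5 KD replicate 1 (-0.91), dKD replicate 1 (-0.996) or dKD replicate 2 (-0.95). Of the pairs, Mpc2 was called only in dKD against Klf5 KD, where it fell by 1.19 ± 0.21 on the log2 scale (edgeR adjusted p = 0.00309) but was not called with total counts (-0.97) or with ERCC library sizes (-1.01, edgeR adjusted p = 0.114). Against control the change was -0.74 ± 0.22 in Nr5a2 KD and -0.63 ± 0.21 in dKD (edgeR adjusted p = 0.0550 and 0.0915). Under ERCC library sizes these became 0.06 and 0.20, where the medians of all genes were 0.82 and 0.84.

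The ratio of Mpc1 to Mpc2 separated control from every knockdown group. On the log2 scale it was 0.76 and 0.77 in control, -0.25, -0.10 and -0.62 in Nr5a2 KD, -0.51, -0.49 and -0.51 in Klf5 KD, and -0.67, -1.61, -2.79 and -2.29 in dKD. Only control had more Mpc1 than Mpc2 per exon length, and every dKD library lay below every library of the other groups. The difference was -1.21 with Nr5a2 siRNA (exact permutation p = 0.00857) and -1.39 with Klf5 siRNA (exact permutation p = 0.00286, the smallest possible). Mpc2 itself was not called with Klf5 siRNA, at a log2 change of 0.54 ± 0.24 in Klf5 KD against control (edgeR adjusted p = 0.568) and 0.28 ± 0.15 over the 12 libraries (edgeR adjusted p = 0.816).

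Pdha1, which encodes the E1 alpha subunit of pyruvate dehydrogenase, joins pyruvate oxidation to the tricarboxylic acid cycle. Its level stood at 209 and 188 CPM in control, 175, 208 and 247 CPM in Nr5a2 KD, 249, 224 and 162 CPM in Klf5 KD, and 183, 189, 219 and 289 CPM in dKD. The 4 groups overlapped, and the log2 change with Nr5a2 siRNA was 0.06 ± 0.16 (edgeR adjusted p = 0.824).

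With Klf5 siRNA edgeR, with its filter on low counts and all libraries, called none of the 10 genes in any comparison. Without the filter it called Ldhb in Klf5 KD against control (log2 change -1.30, adjusted p = 0.0221) and Mpc1 in dKD against Nr5a2 KD and over the 12 libraries (-1.25 and -1.02, adjusted p = 0.000775 and 5.56e-05). In Klf5 KD against control 0% of the 12838 genes tested were called higher and 0% lower by edgeR, while 1087 had an unadjusted p below 0.05 and DESeq2 called 8 higher and 42 lower, none of them among the 10. In dKD against Nr5a2 KD 0% of 13017 genes were called higher and 0% lower, with 447 at an unadjusted p below 0.05, and DESeq2 called 0 higher and 4 lower, none of them among the 10. Over the 12 libraries 0% were called higher and 0.0472% lower with Klf5 siRNA, none of them among the 10, with 900 at an unadjusted p below 0.05, and DESeq2 called 7 higher and 31 lower, Mpc1 among the latter. The interaction of the siRNAs, which asks whether the effect of Nr5a2 siRNA differed with Klf5 siRNA present, gave 0% higher and 0% lower by edgeR, with 715 genes at an unadjusted p below 0.05, and DESeq2 called 3 higher and 0 lower, none of them among the 10. Among the 10 genes other than Pfkl its log2 values ran from -0.57 ± 0.65 for Ldha to 0.80 ± 0.57 for Ldhb, with -0.53 ± 0.50 for Mpc1 (edgeR adjusted p = 0.961, 0.950 and 0.957).

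The other genes of these pathways came from a list of 84, of which 64 were tested over the 12 libraries. With Nr5a2 siRNA 8 were called higher and 3 lower, where 6.72% and 6.55% of all genes were; the groups within the list are small and are described by their counts against these shares. The median log2 change of the 64 genes was 0.19, beside 0.03 over all genes. The higher count was 4 without control replicate 2, 5 without Nr5a2 KD replicate 1 and 5 without Klf5 KD replicate 2, the lower count was 1 without control replicate 2, and 7 and 3 were called without the libraries under 10% mitochondrial counts. Of 18 tested glycolysis genes 3 rose. Ldhc, the lactate dehydrogenase subunit known from testis, was 2.20 to 7.31 CPM in the 5 libraries without Nr5a2 siRNA and 17.9 to 38.5 CPM in the 7 with it, a log2 change of 2.27 ± 0.29 (edgeR adjusted p = 3.12e-05). Pfkm, the muscle-type phosphofructokinase subunit, was 0.118 to 0.535 CPM without and 1.41 to 5.09 CPM with Nr5a2 siRNA, and Pfkfb1, which makes the phosphofructokinase activator fructose 2,6-bisphosphate, rose by 1.51 ± 0.38 (edgeR adjusted p = 0.00833). The genes named for the steps between phosphofructokinase and pyruvate kinase, some of which have other listed isozymes, were not called: log2 changes ran from -0.65 for Pgam1 to 0.90 for Tpi1, with 0.63 for Aldoa, 0.18 for Gapdh, 0.32 for Pgk1, 0.01 for Eno1, and 0.16 for Gpi1, the isomerase upstream of phosphofructokinase.

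**Figure D5:**
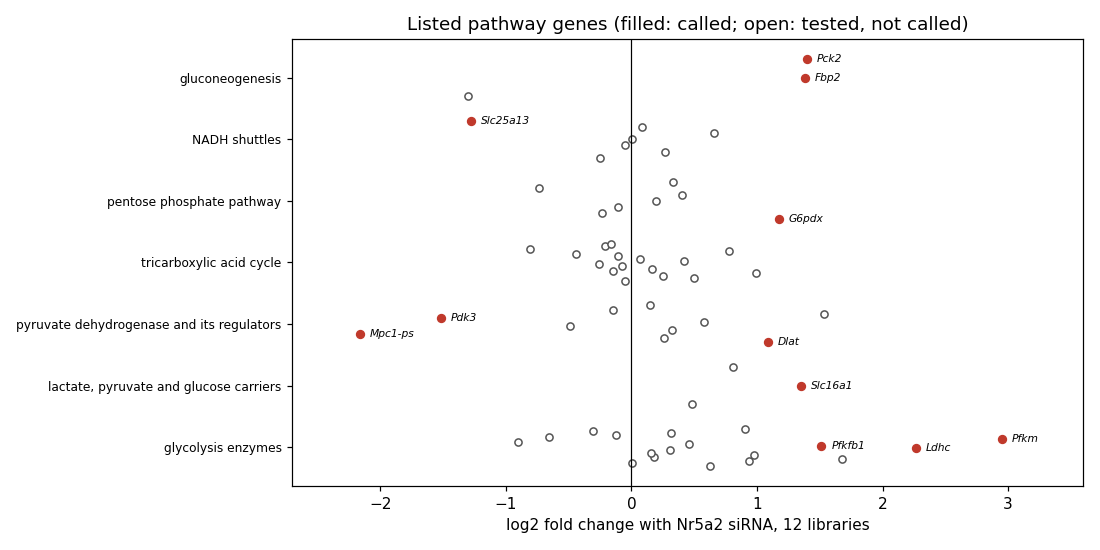
Log2 fold change with Nr5a2 siRNA over 12 libraries (x axis) of the 64 listed pathway genes that were tested, in 7 groups (y axis); filled, named points were called and open points were not. The highest is Pfkm and the lowest Mpc1-ps, and no gene of the tricarboxylic acid cycle was called.

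Of 3 tested carriers 1 rose, the monocarboxylate transporter gene Slc16a1, at 1.35 ± 0.35 (edgeR adjusted p = 0.00980), although dKD replicates 3 and 4 with 14.3 and 15.1 CPM lay below the control libraries with 17.4 and 16.9 CPM, in libraries under 10% mitochondrial counts. Of 10 tested genes of pyruvate dehydrogenase and its regulators, Dlat, the E2 subunit of the complex, rose by 1.08 ± 0.25 and the kinase gene Pdk3 fell by 1.52 ± 0.45 on the log2 scale (edgeR adjusted p = 0.00449 and 0.0222), and the third gene called was Mpc1-ps. Pdk3, Pfkfb1 and Pck2 were not called without the libraries under 10% mitochondrial counts, at log2 changes of -1.97, 1.36 and 0.96 over the 7 libraries kept (edgeR adjusted p = 0.0651, 0.108 and 0.364). The subunits Pdhb, Dld and Pdhx had log2 changes of 0.33, 0.26 and -0.49 and were not called. Of 7 genes of the NADH shuttles, the aspartate-glutamate carrier Slc25a13 fell by 1.27 ± 0.39 on the log2 scale, and of 7 genes of the pentose phosphate pathway, G6pdx, its entry enzyme, rose by 1.17 ± 0.39 (edgeR adjusted p = 0.0248 and 0.0391).

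Of 3 tested gluconeogenesis genes 2 rose. Fbp2, a fructose bisphosphatase, changed by 1.38 ± 0.41 and Pck2, the mitochondrial phosphoenolpyruvate carboxykinase, by 1.40 ± 0.48 (edgeR adjusted p = 0.0230 and 0.0457). The 4 highest Fbp2 levels were in libraries under 10% mitochondrial counts, at 471 CPM in Nr5a2 KD replicate 3, 241 CPM in Klf5 KD replicate 1, and 611 and 418 CPM in dKD replicates 3 and 4, and without the 5 libraries its log2 change was 1.05 (edgeR adjusted p = 0.00226). Several of these calls held in part of the alternatives that could be run over the 12 libraries: G6pdx in 12 of 22, Pck2 in 12 of 22, Slc25a13 in 16 of 22, Fbp2 in 17 of 23, Pdk3 in 18 of 22 and Dlat in 20 of 23. G6pdx lost its call on leaving out any single library other than Klf5 KD replicate 1, dKD replicate 1 or dKD replicate 3, and Pck2 on leaving out any other than control replicate 1, Nr5a2 KD replicate 2, Klf5 KD replicate 3 or dKD replicate 1. Slc25a13 lost it without control replicate 2, Klf5 KD replicate 1 or 3, or dKD replicate 3, Fbp2 without either control, Klf5 KD replicate 2 or 3, or dKD replicate 3, and Pdk3 without control replicate 2 or Klf5 KD replicate 2. Dlat came under 2-fold without control replicate 2, Nr5a2 KD replicate 1 or dKD replicate 1. None of 16 genes of the tricarboxylic acid cycle was called in this fit. Against control, 6 of 63 listed genes tested rose in Nr5a2 KD and 5 of 63 in dKD, where 3.45% and 3.38% of all genes did, including Fh1 in both, at 1.52 ± 0.35 and 1.52 ± 0.34, and Sdhd in Nr5a2 KD, at 1.29 ± 0.26 (edgeR adjusted p = 0.0196, 0.0198 and 0.0112). Fh1 was not called in dKD without the libraries under 10% mitochondrial counts (1.18, edgeR adjusted p = 0.0745) or without dKD replicate 4 (1.46, 0.0502), nor in Nr5a2 KD with the mitochondrial share as a term in the fit (1.18, 0.0999) or without Nr5a2 KD replicate 1 (1.47, 0.0579). With either control library left out, 0 listed genes were called higher in each of these comparisons, and in dKD 3 were without dKD replicate 3, 1 without dKD replicate 4 and 2 without the libraries under 10% mitochondrial counts. In dKD against Klf5 KD 4 of 62 rose, where 5.38% of all genes did, 2 without Klf5 KD replicate 2, and Mpc1-ps fell.

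The promoters of Hk2, Ldha and Mpc1 are shown as those of the genes called against control. RefSeq windows of 250 bases before to 50 after the gene start (GRCm38.p6) were found for all 10 genes, 14 windows in all. They were searched on both strands for the NR5A2 sites CAAGGTCA and CAAGGCCA, the KLF sites GGGTGTGG and GGGCGTGG, the E-box CACGTG and the hypoxia response cores GCGTG and ACGTG, of which ACGTG overlaps the E-box and GCGTG lies within the second KLF site. None of the 14 windows held the NR5A2 sites, which 3.92% of all 32851 windows held. The KLF sites stood in 4 windows, those of Hk1, Pfkp, Pdha1 and Mpc1, beside 8.58% of all windows, the E-box in 1, of Ldha, beside 7.15%, and the hypoxia response core in 11, beside 43.8%. The stretches shown lie before the RefSeq gene start, those of Ldha and Mpc1 inside the annotated span of the gene but outside exons, and run 5′ to 3′ on the gene's strand with matches in capitals. They are chr6:82774455-82774704 (minus strand), chr7:46845554-46845803 (plus strand) and chr17:8283537-8283761 (plus strand).
Hk2: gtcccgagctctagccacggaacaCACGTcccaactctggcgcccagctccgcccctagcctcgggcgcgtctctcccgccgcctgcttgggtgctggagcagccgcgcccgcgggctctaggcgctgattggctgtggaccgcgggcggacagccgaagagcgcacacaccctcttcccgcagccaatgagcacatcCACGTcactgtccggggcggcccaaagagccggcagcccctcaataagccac
Ldha: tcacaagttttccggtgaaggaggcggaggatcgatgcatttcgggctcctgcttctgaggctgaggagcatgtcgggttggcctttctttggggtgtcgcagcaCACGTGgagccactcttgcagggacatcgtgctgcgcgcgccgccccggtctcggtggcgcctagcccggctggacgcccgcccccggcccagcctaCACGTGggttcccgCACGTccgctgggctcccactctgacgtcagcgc
Mpc1: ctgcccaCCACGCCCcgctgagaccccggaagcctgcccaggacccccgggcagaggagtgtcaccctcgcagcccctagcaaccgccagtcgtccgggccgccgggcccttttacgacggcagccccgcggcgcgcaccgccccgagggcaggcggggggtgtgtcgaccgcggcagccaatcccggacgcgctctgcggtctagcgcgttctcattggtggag
The capitals mark 2 E-boxes before Ldha, a reverse-strand KLF site with a hypoxia response core in it before Mpc1, and hypoxia response cores before Hk2 and Ldha. The first listed window of each gene was taken. A second window of Ldha, not shown, held hypoxia response cores and no E-box. A match is a string of letters and says nothing of occupancy.

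The genes whose log2 CPM went most like each gene called against control were taken by Pearson's r over the 12 libraries, which share their group structure and scaling, among 6560 genes with a mean of at least 10 CPM. For Hk2 they were B020004C17Rik (r = 0.967), A930005H10Rik (0.945) and Ifitm1 (0.944). For Ldha they were Dhx8 (0.972), Myo19 (0.963) and Tcf25 (0.956). For Mpc1 they were the overlapping antisense gene 4930506C21Rik (0.999) and the near-identical copy Mpc1-ps (0.991), followed by Mylpf (0.975).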

How the data were processed

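RNA-seq libraries of 12 pools of 10 embryos were made with SMART-seq v4 and Nextera XT from polyA RNA and sequenced as paired ends (the labels name 2 kinds of instrument, the study's methods 1 of them, and neither says which library ran on which). Per the labels and the file headers, the authors trimmed reads with Trim Galore 0.6.2, aligned them with STAR (version not given in the sources used here) to a GRCm38 reference that also held the ERCC spike-ins and H2B-EGFP, and assigned exon reads to genes with featureCounts 2.0.1, unstranded, dividing a read over overlapping genes. The deposited values are therefore estimated counts, fractional and not normalized, and 7.30% to 8.66% of genes per library had values that were not whole. Counts were rounded before testing.

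Genes were filtered with filterByExpr (minimum count 10, minimum total 15), scaled by TMM and tested with the quasi-likelihood test of edgeR 4.0.16 (R 4.3.3), per pair of groups and over 12 libraries (a term for each siRNA, and their interaction), with Benjamini-Hochberg adjustment over all genes tested. Calls needed an adjusted p below 0.05 and a 2-fold change. DESeq2 1.42.0 was an alternative. CPM used TMM factors and TPM the exon lengths of the files. Ratios were compared by two-sided exact permutation within strata of the other siRNA. Named were all 10 genes, pathway genes called in a comparison with control or in the 12-library Nr5a2 fit, 1 listed gene for each of 7 further glycolytic steps, the pyruvate dehydrogenase partners, and the 3 genes most like each member called against control. The members and lists were chosen with earlier results of these data known. Same-numbered libraries of Nr5a2 KD and dKD deviated together (correlations 0.130, 0.221 and 0.254 over genes), and no other pair of groups did throughout. Libraries with different numbers were not compared, so whether the numbers mark pairs was not tested. Fits were also run on simulated counts with known changes as a check of the code, whose outcome is not given here. Depth ranged from 6676683 to 12560926 counts, so genes with few counts, such as Pfkl, are measured coarsely.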

Additional observations from a re-analysis of the deposited data

How the results depend on the processing

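Hk2, Pfkp, Ldha and Mpc1 kept their calls with Nr5a2 siRNA over the 12 libraries in all 23 alternatives. These include the sum of Mpc1 with Mpc1-ps and 4930506C21Rik, which could change little. The number of members called lower there was 1 with total counts, with ERCC library sizes, with a mean of at least 50 counts and without the libraries under 10% mitochondrial counts, and ranged from 1 to 3 with 1 library left out. In Nr5a2 KD against control, 1 member was called higher when the mitochondrial share entered the fit (Hk2, Ldha losing its call) and 0 to 2 with 1 library left out (0 without control replicate 2, 1 without control replicate 1), and the lower count was 2 by unadjusted p and 0 with ERCC library sizes. In dKD against control, the higher count was 4 by unadjusted p, 4 with ERCC library sizes, 1 without the libraries under 10% mitochondrial counts and 0 to 3 with 1 library left out (0 without either control), and the lower count was 2 by unadjusted p and 1 to 2 with 1 library left out. In dKD against Klf5 KD the lower count was 1 with total counts and 1 with ERCC library sizes. With Klf5 siRNA, the lower count was 2 by unadjusted p and 1 without a filter in Klf5 KD against control, 1 by unadjusted p and 1 without a filter in dKD against Nr5a2 KD (0 to 1 with 1 library left out), and 2 by unadjusted p, 1 by DESeq2 and 1 without a filter over the 12 libraries (0 to 1 with 1 library left out).

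With the replicate number as a block, 1 member in place of 3 was called higher in dKD against Klf5 KD. Same-numbered libraries of these 2 groups did not deviate together throughout. Pfkp and Ldha were not called in this comparison (edgeR adjusted p = 0.0577 and 0.118), and 1 pathway gene in place of 4 was called higher. The block called 3 members higher in dKD against control in place of 2, Pfkp being added. It called 3 and 2 pathway genes lower in Nr5a2 KD and dKD against control in place of 1 and 1. In Klf5 KD against control it called 107 genes higher and 146 lower in place of 0 and 0, none of them members and 3 of them pathway genes, all higher. It called none of the genes in place of 7 lower with Klf5 siRNA over the 12 libraries, where the count at an unadjusted p below 0.05 was 734. The block changed no count of members in dKD against Nr5a2 KD (0 higher and 0 lower), where same-numbered libraries deviated together. The block turned Pdha1 with Nr5a2 siRNA to -0.036.

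For the pathway list, dKD against control gave 8 called higher by DESeq2, 23 with ERCC library sizes and 9 without a filter (0 to 6 with 1 library left out). Nr5a2 KD against control gave 0 lower with ERCC library sizes (0 to 7 higher and 1 to 4 lower with 1 library left out). In dKD against Klf5 KD, 7 were called higher with total counts and 2 lower by DESeq2 (2 to 4 higher and 1 to 2 lower with 1 library left out), and 3 lower without the fold-change minimum. Over the 12 libraries with Nr5a2 siRNA 1 was lower with ERCC library sizes, and 13 were higher and 7 lower without the fold-change minimum (4 to 9 higher and 1 to 4 lower with 1 library left out).

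Mpc2 with ERCC library sizes turned to 0.064 in Nr5a2 KD and 0.20 in dKD against control, and the interaction of Ldha turned to 0.10 with a term for mitochondrial share and 0.59 without the libraries under 10%. With 1 library left out, Ldhb with Nr5a2 siRNA ranged from -0.22 to 0.17, Pdha1 from -0.022 to 0.16, the Hk2 to Hk1 ratio with Klf5 siRNA from -0.42 to 0.063, and the Ldha to Ldhb ratio with Klf5 siRNA from 0.88 to 1.49, passing 0.05 without Nr5a2 KD replicate 3, dKD replicate 1 or dKD replicate 2 (1.45, 1.31 and 1.32; exact permutation p = 0.02, 0.035 and 0.03). The cause of these shifts was not tested. With 1 control library left, it is assumed to vary like the other groups. The libraries under 10% could not be left out in Klf5 KD against control and dKD against Klf5 KD, where fewer than 2 Klf5 KD libraries remained.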

Other observations

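Ldha and Ldhc, both higher with Nr5a2 siRNA, are neighbours on chromosome 7 (Ldha 46841475 to 46855627 and Ldhc 46861203 to 46878142, both on the plus strand, GRCm38), with 5575 bases between them.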
